A study of Mus musculus with 18 samples.

Results

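The genes described here were 10 genes of the elastic fibre and of the enzymes that crosslink it: Eln, Fbn1, Fbn2, Fn1 and Postn, and the lysyl oxidases Lox, Loxl1, Loxl2, Loxl3 and Loxl4. They were listed by name, for their known roles, out of 21938 protein-coding genes and 55413 genes of all kinds in the GENCODE vM21 annotation of mouse build GRCm38.p6 (mm10), and the rule holds no threshold on a measured value. For each gene, every H3K27me3 and H3K27ac peak was collected that touched a window that began 5 kb before the gene body and ended 1 kb beyond it. The genes were chosen with earlier results of these data known, so the list is not blind to them. All 10 genes were found in the annotation and all 10 are accounted for.

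The study profiled these histone marks by native chromatin immunoprecipitation and sequencing in bone marrow-derived macrophages (BMDM), cells grown from marrow for a week with macrophage colony-stimulating factor and left unstimulated. It compared wild-type (WT), dystrophic mdx and mdxTLR4-/- mice, in 18 libraries. The WT mice were labelled C57BL6. The mdx mice were labelled Dmdmdx-4Cv, a dystrophin mutation present in every cell and not in macrophages alone. The mdxTLR4-/- mice, labelled mTLR4 with the strain Bl6/Bl10, carried the dystrophin mutation and in addition lacked the lipopolysaccharide receptor TLR4 in all tissues. The study's methods give a C57BL/6J background, so the strain label and the methods differ for this group. For H3K27me3 there were 2 immunoprecipitated and 2 input libraries per genotype. For H3K27ac there were 2 WT, 2 mdx and 1 mdxTLR4-/- libraries, with 1 input library labelled C57BL6. The labelled ages rose with genotype, from 12 and 13 weeks in WT to 14 and 15 weeks in mdx and 16 and 17 weeks in mdxTLR4-/- for H3K27me3. For H3K27ac they were 19 and 20 weeks, 21 and 22 weeks, and 23 weeks. Through all 18 libraries, inputs included, the labelled ages climb in steps of 1 week from 6 to 23 weeks, so it is doubtful that they are the ages of the mice. If they are, age and genotype cannot be told apart.

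The H3K27me3 replicates of a genotype were merged before peak calling. For H3K27ac, which the study's methods describe as analysed in broadly the same way, there was also 1 peak list per genotype. No spread between replicates could be computed, and no p-value is given for any difference between genotypes. The WT, mdx and mdxTLR4-/- lists of H3K27me3 held 28143, 41780 and 36488 peaks, with 8331331, 10199918 and 7358418 reads in peaks. Their median peak length was 5400 bp in WT, 3400 bp in mdx and 3400 bp in mdxTLR4-/-, so peaks were shorter in both dystrophic lists as a whole. The H3K27ac lists held far fewer reads, with 274020, 191629 and 168487 reads in 15665, 12076 and 12493 peaks, and a median of 10, 10 and 8 reads per peak. Total sequencing depth is unknown from these lists, and a gene without a peak was only below the detection limit of that list. The lists matched the label of macrophages in most respects. All 10 macrophage genes examined, among them Csf1r, Spi1 and Lyz2, held an H3K27ac peak in the window in every genotype and no H3K27me3 peak. Over the gene start, 9, 8 and 8 of these 10 held H3K27ac in WT, mdx and mdxTLR4-/-, and Csf1r held none there in any list. Of 8 fibroblast genes, 5 held an H3K27me3 peak over the gene start in every genotype and none held an H3K27ac peak there. H3K27ac lay elsewhere in the windows of 3, 3 and 4 of them. Of 7 skeletal muscle, 4 endothelial and 6 T and B cell genes, 1 held H3K27ac over its start, the endothelial gene Pecam1 in mdx. Anywhere in the window, H3K27ac lay in 2, 3 and 3 of the endothelial genes, with Pecam1 and Cdh5 holding it in every genotype. It lay in 1, 0 and 0 of the skeletal muscle genes and in 1, 1 and 1 of the T and B cell genes.

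Elastic fibres give tissues their recoil. A core of elastin is laid down on microfibrils of fibrillin, and lysyl oxidases crosslink elastin and collagen by oxidising lysine side chains. In skeletal muscle these fibres are made mainly by fibroblasts, and excess crosslinked matrix is a feature of fibrosis in dystrophic muscle. H3K27me3 is the repressive mark that Polycomb repressive complex 2 places on histone H3, often over CG-rich gene starts, whereas H3K27ac marks active promoters and enhancers, and both use the same lysine.

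H3K27me3 was found over the gene start of 8 of the 10 genes in BMDM of all 3 genotypes, and they were the same genes in each: Eln, Fbn1, Fbn2, Fn1, Lox, Loxl1, Loxl2 and Loxl4. Among all protein-coding genes, a peak over the start was found in 23.5% in WT, 23.8% in mdx and 22.7% in mdxTLR4-/-, and in 20.1% in all 3 lists at once. A peak anywhere in the window was also found for the same 8 genes, against 38.4%, 41.3% and 39.0% of protein-coding genes, and 34.8% in all 3 lists. Every annotated protein-coding transcript start of the 8 genes lay under H3K27me3 in each genotype, including 4 for Fn1 and 3 for Loxl4. Postn, which encodes the matricellular protein periostin, and Loxl3, a lysyl oxidase, held no H3K27me3 peak in any genotype.

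The 8 genes held 17, 19 and 18 H3K27me3 peaks in the WT, mdx and mdxTLR4-/- lists, with 9224, 8712 and 7017 reads in all. The breadth of the mark divided them into broad and narrow forms. At least 50% of the window lay under H3K27me3 for 4 genes in WT (Eln, Loxl1, Loxl2 and Loxl4), against 16.6% of protein-coding genes. Eln, Loxl1 and Loxl4 remained past that limit in mdx, against 16.3%, and in mdxTLR4-/-, against 14.9%. Fbn1, Fbn2 and Fn1 were covered over less than 10% of the window in every genotype, with the mark at the start. The median coverage of the 10 windows was 19.0% in WT, 14.7% in mdx and 12.6% in mdxTLR4-/-, and the median over all protein-coding genes was 0.0% in each list. Each median of the 10 was the midpoint between Lox and a sparsely covered gene, Fn1 in WT and Fbn1 in the other lists. Lox stood at 31.3%, 20.2% and 19.2%, so the differences between the medians largely followed this gene alone. The order of mdx and mdxTLR4-/- in the median changed with a stricter peak threshold. With only peaks of at least 1.5 times the 1st percentile of density in their list, the medians were 17.5%, 9.77% and 10.7%.

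**Figure D1:**
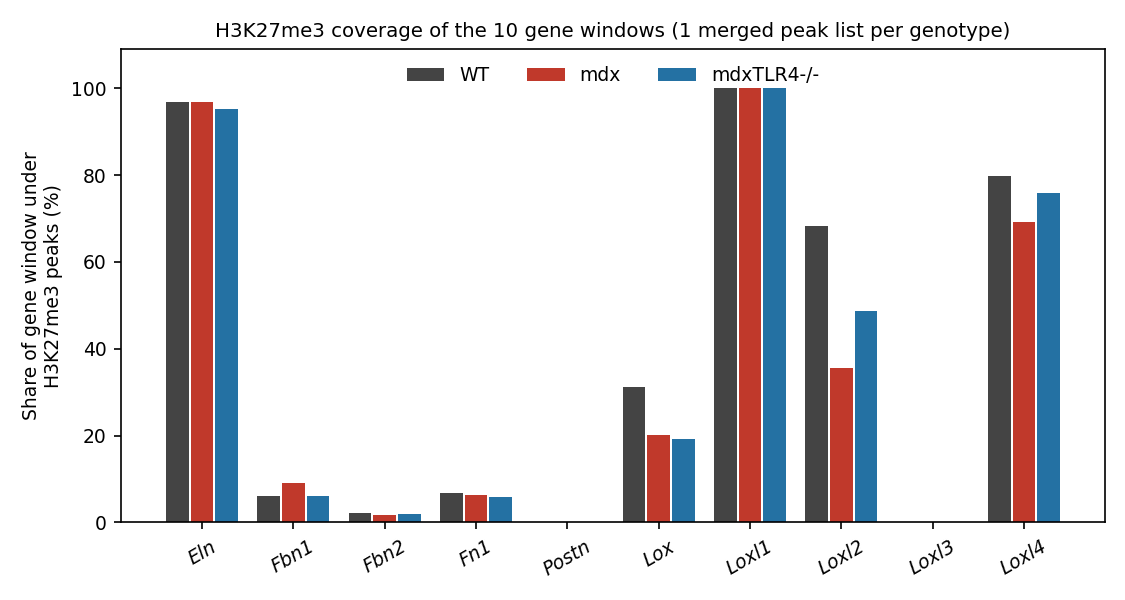
Share of each gene window (%) under H3K27me3 peaks in WT (grey), mdx (red) and mdxTLR4-/- (blue) BMDM, 1 merged peak list per genotype and therefore no error bars. Eln and Loxl1 stand at 95.3% or more in each list, Postn and Loxl3 at 0.0%, and Loxl2 differs most, with 68.3%, 35.5% and 48.7%.

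The start regions are shown for the 3 genes that had an entry in the RefSeq promoter table (250 bases before to 50 after a RefSeq start, build GRCm38.p6), because H3K27me3 lay over the windows of Fbn1 and Loxl4 in all 3 lists and over neither entry of Postn. Capitals mark the dinucleotide CG, which reads the same on both strands. Each sequence is written 5′ to 3′ on the strand of its gene.
Fbn1, chr2:125506389-125506688, minus strand: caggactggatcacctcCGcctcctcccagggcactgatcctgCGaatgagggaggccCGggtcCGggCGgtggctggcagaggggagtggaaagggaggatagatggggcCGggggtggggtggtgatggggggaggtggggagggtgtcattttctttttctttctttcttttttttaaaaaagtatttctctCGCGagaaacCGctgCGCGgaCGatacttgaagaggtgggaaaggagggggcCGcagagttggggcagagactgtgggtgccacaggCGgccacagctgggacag
Loxl4, chr19:42612757-42613056, minus strand: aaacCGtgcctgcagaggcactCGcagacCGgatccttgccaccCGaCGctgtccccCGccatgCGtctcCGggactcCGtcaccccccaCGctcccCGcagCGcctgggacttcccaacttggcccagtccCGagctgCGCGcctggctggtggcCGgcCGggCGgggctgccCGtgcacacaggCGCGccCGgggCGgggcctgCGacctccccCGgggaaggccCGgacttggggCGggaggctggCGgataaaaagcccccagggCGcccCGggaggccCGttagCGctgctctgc
Postn, chr3:54360857-54361156, plus strand: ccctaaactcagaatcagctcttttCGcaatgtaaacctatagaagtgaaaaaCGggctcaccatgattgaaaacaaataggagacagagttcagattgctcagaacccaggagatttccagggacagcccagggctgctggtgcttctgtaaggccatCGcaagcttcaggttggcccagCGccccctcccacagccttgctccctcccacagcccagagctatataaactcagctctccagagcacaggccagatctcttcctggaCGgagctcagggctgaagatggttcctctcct

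The Loxl4 window held 32 CG and 75.0% G or C, and 9.52% of the 32851 promoters in the table held as many CG. The Fbn1 window held 14 CG and 60.3% G or C, reached by 36.3% of promoters. The RefSeq start of this Fbn1 entry lay 1555 bp inside the GENCODE gene body. The Postn window held 5 CG and 53.0% G or C, reached by 62.0% of promoters, and its second entry, at chr3:54359017-54359316, held 4. The median promoter in the table held 7 CG.

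Over the whole windows, the narrow H3K27me3 peaks lay on CG-rich DNA. In WT, the DNA under the Fbn2 peak held 43.4 CG per kb and the rest of its window 11.7 per kb. The values were 29.7 and 8.82 for Lox, 25.0 and 14.7 for Fn1, and 19.1 and 10.4 for Fbn1. In the broad genes the peaks and the rest of the window were closer, with 10.8 and 8.75 for Eln, 11.1 and 9.44 for Loxl2, and 14.8 and 15.3 for Loxl4. The Loxl1 window, at 14.6 CG per kb, lay wholly under its peak. The Loxl3 window, which held no H3K27me3 peak, contained 18.2 CG per kb, more than the windows of the other 9 genes, and the Postn window 7.65 per kb, fewer than any. The WT values are plotted for all 10 genes.

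**Figure D2:**
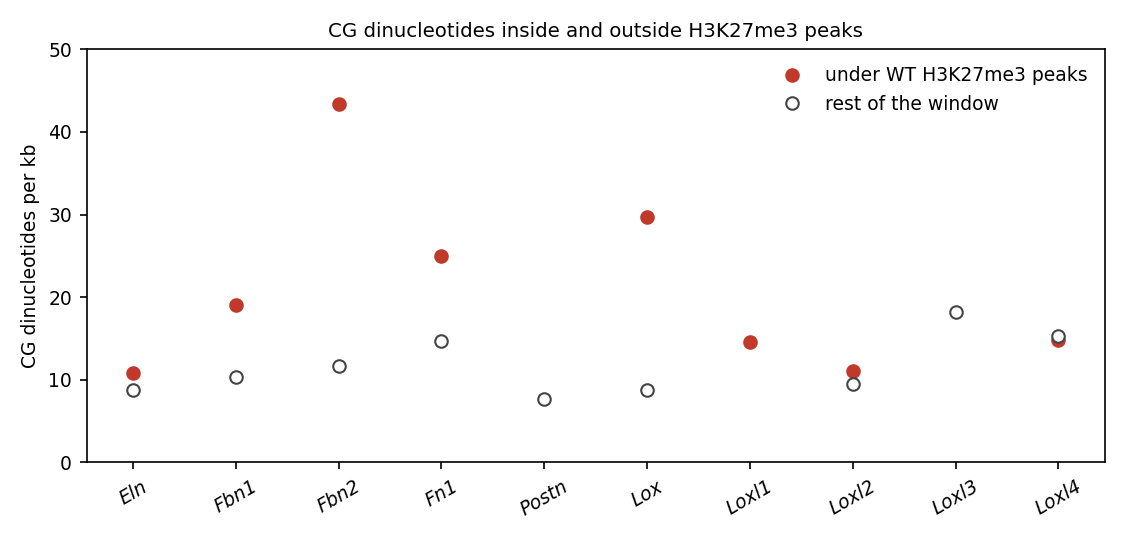
CG dinucleotides per kb under WT H3K27me3 peaks (filled red points) and in the rest of each gene window (open points), 1 point per gene and region. Fbn2, Lox, Fn1 and Fbn1 have the widest gaps, from 43.4 against 11.7 in Fbn2 to 19.1 against 10.4 in Fbn1; Postn and Loxl3 have no peak and Loxl1 has no uncovered part.

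Elastin, the rubber-like protein of the fibre core, is encoded by Eln (ENSMUSG00000029675.12, chr5:134702593-134747323, minus strand). Its window was covered by H3K27me3 over 96.8% in WT, 96.8% in mdx and 95.3% in mdxTLR4-/-, and all 37 exons of its coding transcript with the most exons lay under the mark in each list. The domain reached well past the window, from 27.9 kb before the start to 50.5 kb after it in WT, from 22.5 kb before to 52.1 kb after in mdx, and from 20.1 kb before to 52.1 kb after in mdxTLR4-/-. The peaks held 2755 reads in the WT list, 3083 in mdx and 2396 in mdxTLR4-/-, which is 35.9, 42.2 and 34.3 reads per kb of peak. The gaps inside the gene were short, and 94.4% of the covered bases were covered in all 3 genotypes. The start of Gm30003, an antisense transcript, also lay in this window, and the reads carry no strand.

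Fibrillin-1 and fibrillin-2 form the microfibrils on which elastin is deposited. Fbn1 (ENSMUSG00000027204.13, chr2:125300594-125507993, minus strand) held its densest peak over the start, from 1.41 kb before to 6.59 kb after it in WT, with 411 reads (95% exact Poisson interval 372 to 453) and 51.4 reads per kb. This peak held 542 reads (497 to 590) over 10.4 kb in mdx and 417 (378 to 459) over 10.8 kb in mdxTLR4-/-. Further peaks inside the gene were sparse and mostly differed in place. WT had 1 of 98 reads between 75.2 and 80.0 kb from the start, and mdx had 3, of 99, 74 and 53 reads. The mdx peak of 99 reads lay between 13.0 and 17.2 kb, and that of 74 reads between 77.2 and 80.0 kb, within the WT peak. The mdxTLR4-/- list had 1, of 37 reads, between 20.0 and 22.0 kb. Coverage of the long window was 6.0% in WT, 9.18% in mdx and 6.0% in mdxTLR4-/-. Of the covered bases, 33.1% were shared by all 3 genotypes and 6600 bp were covered in mdx alone. Gm9913, an annotated protein-coding gene on the opposite strand, starts beneath the same start peak in each list.

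Fbn2 (ENSMUSG00000024598.9, chr18:58008623-58210487, minus strand) carried a single peak over its start in each genotype. It ran from 1.51 kb before to 2.89 kb after the start in WT, from 1.31 to 2.09 kb in mdx and from 2.11 to 2.09 kb in mdxTLR4-/-. The reads were 191 (165 to 220) in WT, 175 (150 to 203) in mdx and 166 (142 to 193) in mdxTLR4-/-. The peak took up only about 2% of the window (2.12%, 1.64% and 2.02%) and covered the first 2 of 65 exons in each list. Gm26507, a non-coding RNA gene on the opposite strand, starts beneath the same peak in each list.

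Fn1 (ENSMUSG00000026193.15, chr1:71585520-71653200, minus strand) encodes fibronectin, the glycoprotein onto which fibrillin and other matrix proteins assemble. Its H3K27me3 was the sparsest of the start peaks. The peak held 103 reads (84.1 to 125) over 5000 bp in WT, 154 (131 to 180) over 4600 bp in mdx and 99 (80.5 to 121) over 4400 bp in mdxTLR4-/-. In WT its 20.6 reads per kb exceeded only 23.6% of the peaks of the list, compared with 71.9% in mdx for 33.5 reads per kb and 42.1% in mdxTLR4-/- for 22.5 reads per kb. With peaks required to reach 1.5 times the 1st percentile of density in their list, the WT peak was no longer kept while those of mdx and mdxTLR4-/- were. The requirement kept 16412 of the 28143 WT peaks, so the WT peak was among many left out. The mark at Fn1 in WT was thus sparse, below the WT list median of 24.5 reads per kb. Apol7d, an antisense transcript, starts beneath the same region.

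The lysyl oxidases ranged from a gene wholly under H3K27me3 to one with no peak. Lox (ENSMUSG00000024529.14, chr18:52516067-52529867, minus strand) encodes the founding enzyme of the family, which crosslinks both collagen and elastin. Its single H3K27me3 peak ran from 1.53 kb before to 4.67 kb after the start in WT, from 1.93 to 2.07 kb in mdx and from 1.93 to 1.87 kb in mdxTLR4-/-. The peak was shorter on the gene-body side in both dystrophic genotypes, and it covered 5 of 8 exons in WT but 3 in each of the others. Its reads were 216 (188 to 247) in WT, 235 (206 to 267) in mdx and 147 (124 to 173) in mdxTLR4-/-, and window coverage was 31.3%, 20.2% and 19.2%. Density was 34.8 reads per kb in WT, 58.8 in mdx and 38.7 in mdxTLR4-/-. The mdx peak was thus shorter and denser than the WT peak, with a similar number of reads. AC161119.1, an antisense transcript, starts beneath the Lox peak in each list.

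Loxl1 (ENSMUSG00000032334.10, chr9:58287738-58313186, minus strand) encodes the enzyme most closely tied to elastin crosslinking and fibre renewal. A single peak spanned the whole gene in each genotype, so coverage was 100.0% throughout and all 7 exons lay under the mark. It held 2368 reads (2270 to 2470) over 52200 bp in WT, 2245 (2150 to 2340) over 39000 bp in mdx and 1916 (1830 to 2000) over 36800 bp in mdxTLR4-/-. The difference in length lay mainly upstream of the gene, where the peak reached 19.0 kb before the start in WT, 8.21 kb in mdx and 8.01 kb in mdxTLR4-/-. Density was 45.4 reads per kb in WT, 57.6 in mdx and 52.1 in mdxTLR4-/-, above 94.7%, 96.9% and 97.1% of the peaks in the same list.

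Loxl4 (ENSMUSG00000025185.14, chr19:42593982-42612813, minus strand) encodes one of the lysyl oxidases with scavenger receptor repeats. A single peak covered its start and most of its body, over 79.8% of the window for WT, 69.3% for mdx and 75.8% for mdxTLR4-/-. The peak ended 14.8 kb from the start in WT, 12.2 kb in mdx and 13.8 kb in mdxTLR4-/-, leaving 13, 10 and 11 of 15 exons under the mark. It held 931 reads (872 to 993) in WT, 1138 (1070 to 1210) in mdx and 857 (801 to 916) in mdxTLR4-/-. All 3 lists shared 86.9% of the covered bases.

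Loxl2 (ENSMUSG00000034205.16, chr14:69609068-69695834, plus strand) encodes a related enzyme that crosslinks collagen, also with scavenger receptor repeats. Its H3K27me3 coverage differed more between genotypes than that of any of the other 9 genes, with 68.3% in WT, 35.5% in mdx and 48.7% in mdxTLR4-/-. There were 7 peaks in each list, and they held 2151 reads in the WT list, 914 in mdx and 982 in mdxTLR4-/-. The peaks were shorter and fewer bases were marked in both dystrophic genotypes. Shorter peaks were a trait of the whole mdx and mdxTLR4-/- lists and not of Loxl2 alone. Fewer marked bases were not a trait of the whole mdx list, which covered 261 Mb against 252 Mb in WT and 224 Mb in mdxTLR4-/-. Of 68133 bp marked in any list, 22733 bp (33.4%) were marked in all 3, 15600 bp in WT alone, 17600 bp in WT and mdxTLR4-/- but not mdx, and 0 bp in mdx alone.

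The start of Loxl2 was marked in every genotype. The peak over it was 27800 bp long with 972 reads (912 to 1040) in WT, 10800 bp with 417 reads (378 to 459) in mdx and 14800 bp with 427 reads (387 to 469) in mdxTLR4-/-. In WT it reached from 16.5 kb before the start to 11.3 kb after, in mdx from 5.07 kb before to 5.73 kb after, and in mdxTLR4-/- from 5.47 kb before to 9.33 kb after. Its unscaled reads per kb were 35.0 in WT, 38.6 in mdx and 28.9 in mdxTLR4-/-, above 84.8%, 83.5% and 72.4% of the peaks in the same list. The marked stretch around the start was thus shorter in both dystrophic genotypes, while in mdx its rank within the list was close to that in WT. The 6 peaks further inside the gene held 1179 reads over 47000 bp in WT, 497 over 22200 bp in mdx and 555 over 30800 bp in mdxTLR4-/-, which is 25.1, 22.4 and 18.0 reads per kb. In WT, the body peaks were denser than 3.84% to 75.4% of the list. The corresponding range was 3.72% to 72.6% in mdx and 6.41% to 31.5% in mdxTLR4-/-. Of 14 exons, 10 lay under the mark in WT, 6 in mdx and 8 in mdxTLR4-/-.

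**Figure D3:**
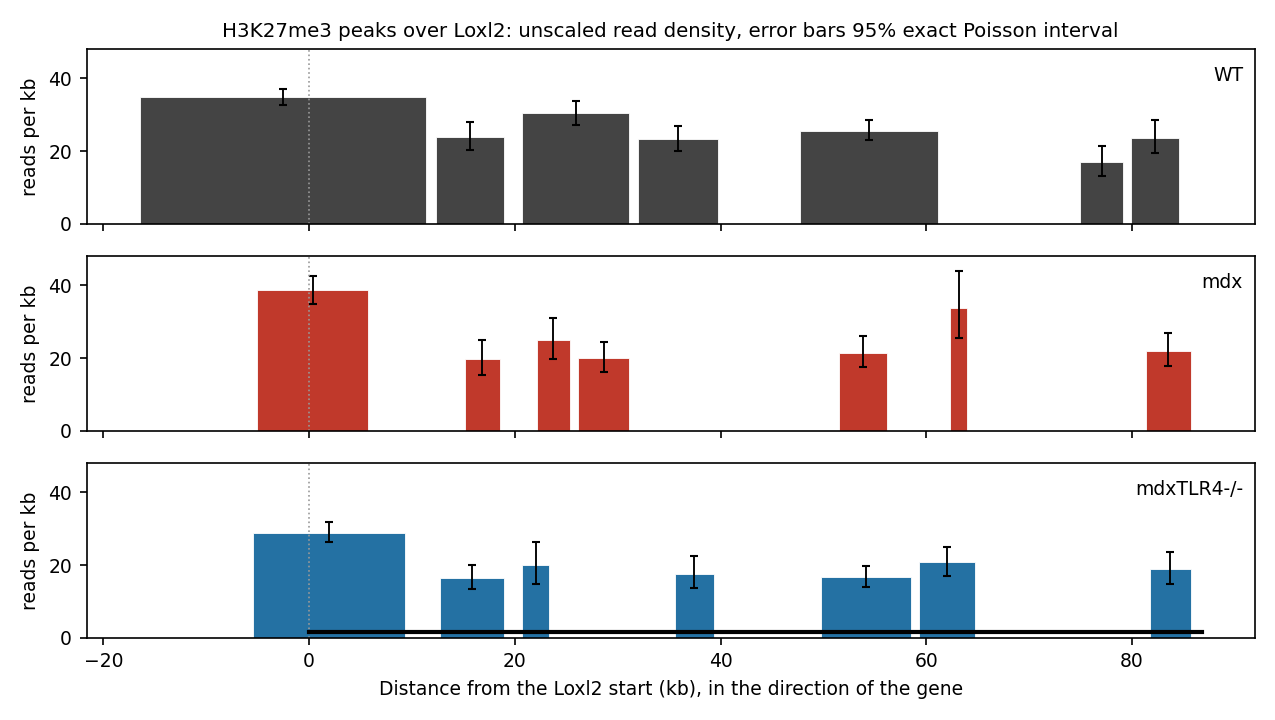
H3K27me3 peaks at Loxl2 drawn to scale as blocks, with distance from the gene start in kb on the x axis and unscaled reads per kb as height; the error bars are 95% exact Poisson intervals and the black line is the gene body. The start peak narrows from 27800 bp in WT to 10800 bp in mdx and 14800 bp in mdxTLR4-/-, and the body peaks are lower than the start peak in each list.

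The size of the Loxl2 difference changed with the peak threshold, while WT stayed highest and mdx lowest under the 3 thresholds tried. With the denser-peak requirement described for Fn1, coverage was 63.7% in WT, 13.3% in mdx and 15.5% in mdxTLR4-/-. With the 28143 densest peaks of each list it was 68.3%, 13.3% and 24.1%, and with peaks under 2 kb left out it was 68.3%, 33.8% and 48.7%. Within 2.5 kb of the start it was 100.0% in every genotype. Gm27177, an antisense transcript, overlaps most of the gene, and its reads cannot be separated from those of Loxl2.

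**Figure D4:**
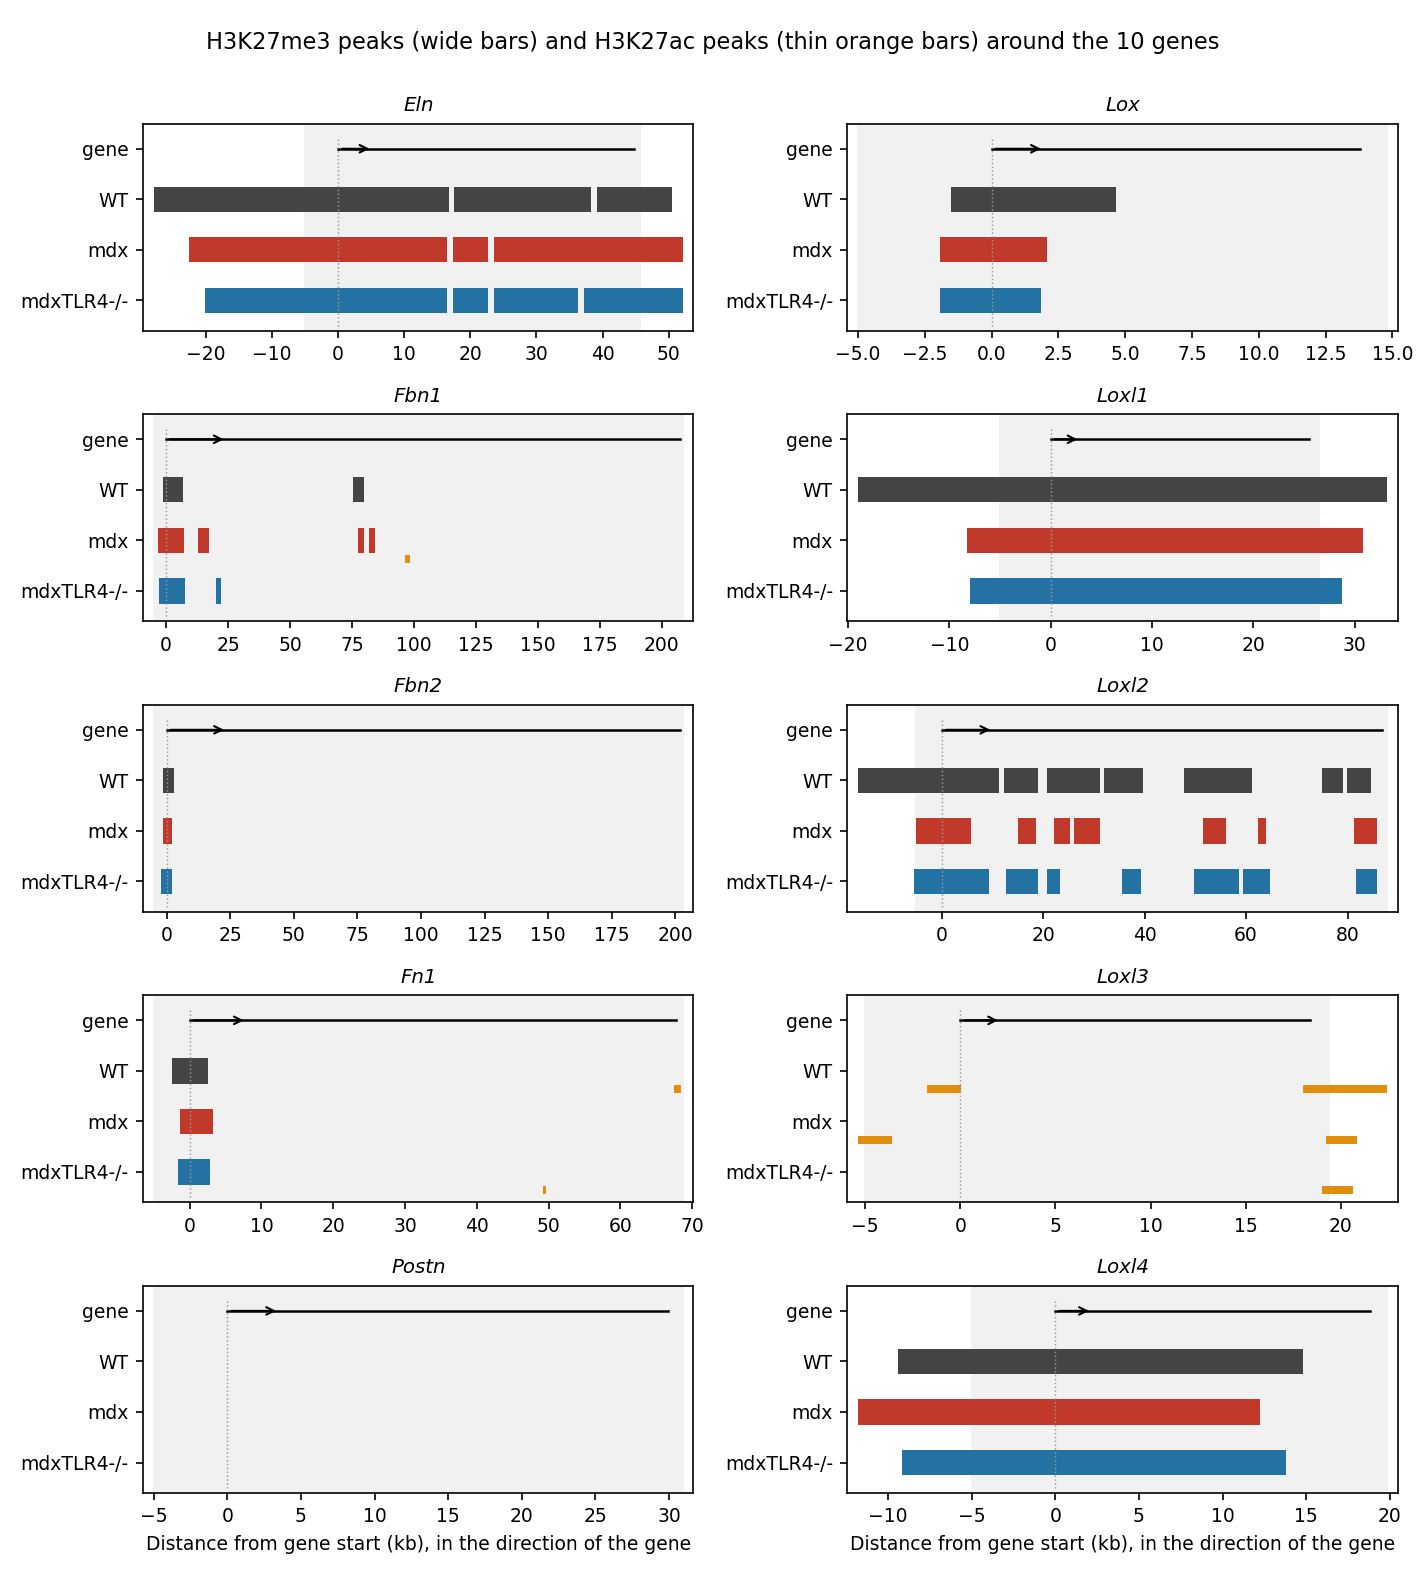
Peaks of H3K27me3 (wide bars, coloured by genotype) and H3K27ac (thin orange bars below each genotype) around the 10 genes; the x axis is distance from the gene start in kb in the direction of the gene and the grey band is the window. The mark fills the Eln and Loxl1 bands, sits as a block at the start in Fbn2, Fn1 and Lox, is broken into 7 peaks in Loxl2, and is missing from Postn and Loxl3.

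Changes in coverage were set beside those of all protein-coding genes with a peak in either list. Between mdx and WT, coverage was lower by at least 10 percentage points in 3 of 8 genes, Lox by a change of -11.1, Loxl2 of -32.8 and Loxl4 of -10.5 points, against 12.8% of 9476 genes, and higher by as much in 0 of 8, against 11.3%. Between mdxTLR4-/- and WT it was lower by at least 10 points in 2 of 8, Lox with -12.1 and Loxl2 with -19.6 points, against 20.1% of 9193 genes, and higher in 0 of 8, against 6.23%. Between mdxTLR4-/- and mdx it was lower in 0 of 8, against 17.8% of 9499 genes, and higher in 1, Loxl2 with 13.2 points, against 5.81%. That call was lost with the denser-peak requirement, where Loxl2 coverage was 15.5% in mdxTLR4-/- and 13.3% in mdx. Counting any decrease, coverage was lower in 5, 6 and 4 of the 8 genes in these comparisons, against 44.9%, 59.2% and 59.9% of genes. The median change over the 8 genes was -0.51 points for mdx against WT and -1.2 points for mdxTLR4-/- against WT, with medians over all genes of 0.0 and -1.26 points. In points, little decrease was possible for Fbn1, Fbn2 and Fn1, which were covered over less than 10%. Little increase was possible for Eln and Loxl1, covered over 95.3% or more. These comparisons share lists, WT serving 2 of them and mdx 2, and are not separate evidence.

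Read density within peaks was compared as the ratio of reads per kb of peak, with a 95% exact interval for counting error alone. The lists differed in read density as a whole, and sequencing depth, enrichment and the amount of the mark cannot be told apart as its source. In the 17103 regions that all 3 lists marked, the median ratio was 1.22 for mdx against WT, 0.959 for mdxTLR4-/- against WT and 0.79 for mdxTLR4-/- against mdx. The medians over the 8 genes were close to these, at 1.21, 0.963 and 0.782, and those over all protein-coding genes were 1.2, 0.975 and 0.812. Ratios above 1 were found for 6, 3 and 0 of the 8 genes, against 90.6%, 41.2% and 8.52% of genes. Each ratio is therefore given below also relative to the shared regions.

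Lox and Fn1 stood highest for mdx against WT, with ratios of 1.69 (1.4 to 2.04) and 1.63 (1.26 to 2.11). These were the 2 of 8 genes above 1.5, against 6.15% of 7996 genes, and 0 of 8 lay below 1/1.5, against 0.563%. Relative to the shared regions the ratios were 1.38 (1.15 to 1.67) for Lox and 1.33 (1.03 to 1.73) for Fn1. Loxl2 and Fbn1 stood lowest, at 0.963 (0.89 to 1.04) and 0.985 (0.88 to 1.1), which is 0.791 (0.731 to 0.855) and 0.809 (0.722 to 0.907) relative to the shared regions. Over the start peak alone, Loxl2 stood at 0.907 (0.807 to 1.02) relative to the shared regions. Eln, Fbn2, Loxl1 and Loxl4 were between 0.967 and 1.04 relative to the shared regions, with intervals that all held 1.

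For mdxTLR4-/- against WT, Loxl2 was again lowest over all its peaks at 0.749 (0.694 to 0.808), or 0.78 (0.723 to 0.842) relative to the shared regions. Over the start peak alone Fbn1 was lowest, at 0.783 (0.682 to 0.9) relative to the shared regions, and Loxl2 stood at 0.86 (0.766 to 0.965). Loxl1 was highest at 1.15 (1.08 to 1.22), or 1.2 (1.13 to 1.27) relative to the shared regions. No gene of the 8 passed 1.5 or 1/1.5 in this comparison, where 1.49% and 2.28% of 7779 genes did. For mdxTLR4-/- against mdx, 1 of 8 was below 1/1.5, against 9.37% of 8109 genes, and 0 of 8 were above 1.5, against 0.432%. That gene was Lox, with a ratio of 0.658 (0.532 to 0.813), and relative to the shared regions its interval, 0.674 to 1.03, held 1. Loxl1 and Fbn1, both at 1.15 relative to the shared regions, stood above 1 there with intervals of 1.08 to 1.22 and 1.02 to 1.29. For Fbn1 the pooled value also counted sparse body peaks, which spanned more bases in mdx than in mdxTLR4-/-. Over the start peak alone the Fbn1 value was 0.938 (0.824 to 1.07). Peak length and density are not separate measurements, since a peak trimmed of its sparse flanks becomes denser.

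**Figure D5:**
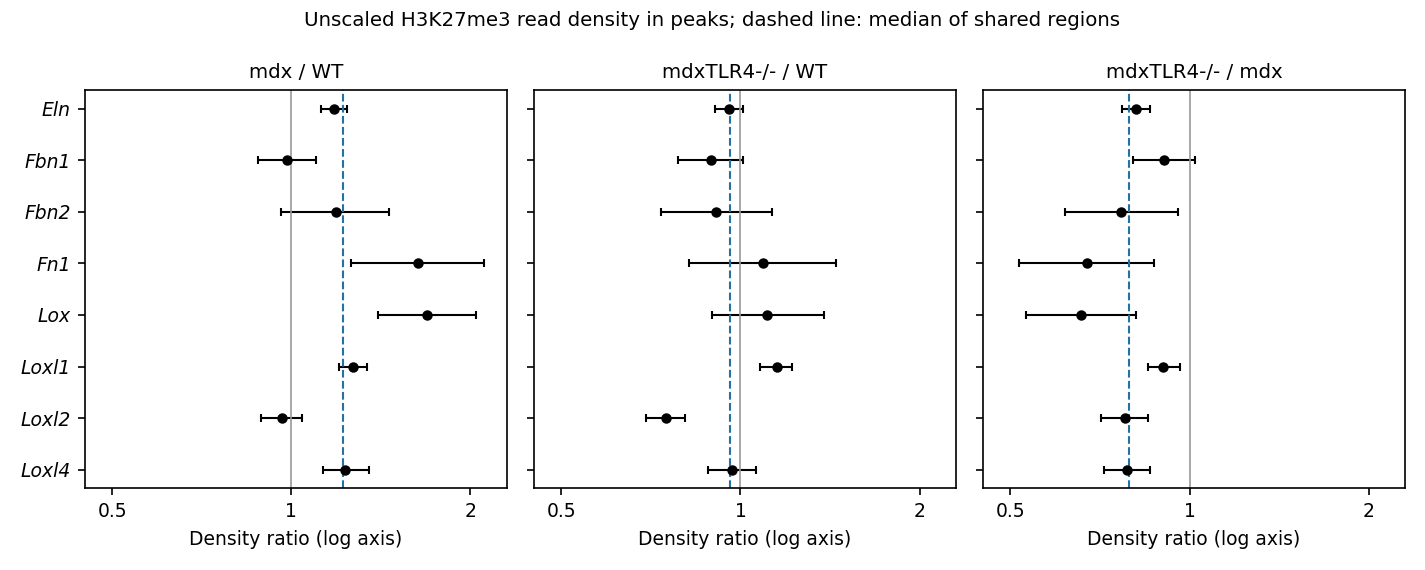
Ratio of unscaled H3K27me3 reads per kb of peak for the 8 genes with a peak in every list, on a log axis, for the 3 pairs of genotypes; points are ratios and bars 95% exact intervals for counting error only. The dashed line is the median of the 17103 shared regions (1.22, 0.959 and 0.79), and Lox and Fn1 lie to its right and Loxl2 and Fbn1 to its left for mdx against WT.

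H3K27ac was sparse at these genes. A peak lay in the window of 2 of 10 genes in each genotype, Fn1 and Loxl3 in WT, Fbn1 and Loxl3 in mdx, and Fn1 and Loxl3 in mdxTLR4-/-, against 39.9%, 34.5% and 36.5% of protein-coding genes. In any list it was 3 of 10, against 48.1%, and in all 3 lists 1 of 10, Loxl3, against 26.7%. A peak over the gene start was found for 1 of 10 in any list, against 30.0%, and that was Loxl3 in WT, where 24.0% of genes held one. No gene carried a peak over its start in mdx or mdxTLR4-/-, where 20.6% and 20.9% of genes did. The remaining 7 genes, Eln, Fbn2, Postn, Lox, Loxl1, Loxl2 and Loxl4, held no H3K27ac peak in any list, at a depth where the smallest peak listed held 5 reads.

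The few H3K27ac peaks rested on 6 to 15 reads each. In Fn1 a peak of 6 reads (2.2 to 13.1) lay between 67.4 and 68.4 kb from the start in WT, at the far end of the gene, and another of 6 reads lay between 49.2 and 49.6 kb in mdxTLR4-/-. The mdx list had none there, and at these counts a difference between genotypes was not detectable. In Fbn1 a peak of 9 reads (4.12 to 17.1) lay 96.4 to 98.2 kb from the start in mdx only. None of these overlapped H3K27me3 of the same gene.

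Loxl3 (ENSMUSG00000000693.10, chr6:83034173-83052562, plus strand), a lysyl oxidase with scavenger receptor repeats, was thus the one gene with H3K27ac in every list, and none of its peaks was its alone. In WT a peak of 9 reads (4.12 to 17.1) ran from 1.77 kb before the start to 0.027 kb after it and also lay over the start of Dok1, the neighbouring gene. In mdx a peak of 7 reads (2.81 to 14.4) lay 5.37 to 3.57 kb before the start, over M1ap. At the other end of the window, WT had a peak of 15 reads (8.4 to 24.7) over the starts of Htra2 and Aup1, mdx one of 8 reads (3.45 to 15.8) and mdxTLR4-/- one of 10 reads (4.8 to 18.4), both over the start of Aup1. Whether the signal belongs to Loxl3 or to its neighbours cannot be told from these lists. Postn (ENSMUSG00000027750.16, chr3:54361109-54391037, plus strand) held no peak of either mark in any genotype.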

How the data were processed

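Native chromatin immunoprecipitation with H3K27me3 or H3K27ac antibodies was sequenced from unstimulated BMDM (18 libraries). Per the labels and methods, the authors used CASAVA 1.8, cutadapt 1.15, Bowtie2 2.3.4 (mm10) and SICER 2.0, and merged the H3K27me3 replicates for peak calling, with H3K27ac handled in broadly the same way. The deposited lists give each peak's position and its raw read count, whose names state windows of 200 bp, gaps of 600 bp and a false discovery rate of 0.01. With 1 list per mark and genotype there is no replicate spread, and intervals (95%, exact Poisson or Clopper-Pearson) cover counting error only and make no allowance for PCR duplicates.

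Genes came from GENCODE vM21, without mitochondrial genes. Coverage was the share of a window (5 kb before to 1 kb after the gene) under peaks, and density was reads of all touching peaks per kb of peak, counted whole. Exons are those of the coding transcript with the most exons. All 10 genes are named, other elastic fibre genes only where coverage differed by 20 points or H3K27ac lay over the start. Genes and lists were chosen with earlier results of these data known. Alternatives were a stricter density (1.5 times the 1st percentile), equal numbers of peaks, a minimum length (2 kb for H3K27me3, 1 kb for H3K27ac), a coverage limit of 20%, a start window of 2.5 kb, and 3 scalings. Promoter sequences came from RefSeq (GRCm38.p6), with 3 of 10 genes matched. Python 3.11.15 was used with pysam 0.24.0, pandas 2.3.3, scipy 1.17.1, numpy 2.4.6 and matplotlib 3.10.9, and the scripts were tested on simulated peaks.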

Additional observations from a re-analysis of the deposited data

How the results depend on the processing

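Leaving out a replicate was not possible, and the low read counts of the H3K27ac lists limit any statement on its absence. No paired analysis was possible because each mark had 1 list per genotype. Of the summary values under all alternatives, 36 did not move beyond the limits set (a factor of 1.5 for counts and median coverage, the range over the 8 genes for median ratios), 18 did and 6 changed direction. Within 2.5 kb of the start, at least 50% coverage was reached by 8 genes in WT, 8 in mdx and 8 in mdxTLR4-/-, and an H3K27ac peak was found for 1, 0 and 0 genes. With a limit of 20% coverage, 5, 5 and 4 genes passed. Median coverage of the 10 windows was 89.3%, 90.0% and 92.0% within 2.5 kb of the start, and in mdx it was 9.77% both under the stricter density and with equal numbers of peaks, below the mdxTLR4-/- values of 10.7% and 12.6%. The cause was not tested. With H3K27ac counted only where at least 200 bp lay in the 5 kb upstream, 1, 1 and 0 genes held it, and with short peaks left out the mdxTLR4-/- count was 1. Shares of all protein-coding genes are given for the main setting alone, so the gene counts under the alternatives cannot be set beside a background. The median density ratio of the 8 genes followed the scaling. Scaled to reads in peaks it was 0.988 for mdx against WT, 1.09 for mdxTLR4-/- against WT and 1.08 for mdxTLR4-/- against mdx. Relative to the 1st percentile of density the latter pair of ratios was 1.05 and 0.997, and relative to the shared regions the 3 ratios were 0.993, 1.0 and 0.99. These changes of direction follow from the scaling factors, which divide every gene's ratio by the same number.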

Other observations

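Other genes of the elastic fibre carried H3K27me3 as well. The 18 further genes examined included the fibulins, the microfibril-associated proteins and the latent TGF-beta binding proteins. Of these 18, 14 held a peak in the window in each genotype, against 38.4%, 41.3% and 39.0% of protein-coding genes in WT, mdx and mdxTLR4-/-. Over the start, 14, 13 and 14 held one, against 23.5%, 23.8% and 22.7%. At least 50% of the window was covered in 12, 11 and 11 of the 18, against 16.6%, 16.3% and 14.9%. Their median coverage was 66.5%, 56.1% and 55.5%. In 3 genes coverage differed by 20 points or more between genotypes, and the share of all genes that did so was not computed. Mfap2, which encodes a microfibril-associated glycoprotein, was covered over 91.5% in WT, 58.8% in mdx and 86.3% in mdxTLR4-/-. Ltbp3, which encodes a binding protein of latent TGF-beta, was covered over 99.4%, 67.0% and 57.1%. Tgm2, which encodes the crosslinking enzyme transglutaminase 2, was covered over 72.2%, 46.2% and 38.4%.

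Emilin1, which encodes a glycoprotein at the surface of elastic fibres, was the one gene of these 18 with H3K27ac over its start in any list, against 30.0% of protein-coding genes. Anywhere in the window, H3K27ac lay in 3, 2 and 4 of the 18, against 39.9%, 34.5% and 36.5%. Emilin1 held no H3K27me3 peak in any list. Its H3K27ac peaks held 31, 10 and 5 reads for WT, mdx and mdxTLR4-/-, the last from 1 library and not over the start. The H3K27ac lists differ in reads in peaks, and the ratio between them was not tested.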
